A study of Mus musculus with 32 samples.

Results

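Livers of mice without thyroid hormone receptor beta (Thrb knockout, KO) were set against wild-type livers (WT), all from hypothyroid animals injured with carbon tetrachloride (CCl4). The comparison holds 4 KO and 4 WT libraries, chosen by their labelled genotype and treatment, of 32 libraries in the series. Every animal of both groups was fed a PTU/LID diet, which makes mice hypothyroid, and was injected with CCl4 at 0.4 µl/g, 2 times a week for 4 weeks, 9 injections in all. Neither group was given triiodothyronine (T3), the active thyroid hormone; both had phosphate-buffered saline (PBS) instead, and liver was taken 24 hours after the last injection. The other 24 libraries cover, with 4 animals a group, both genotypes with PBS and oil (hypothyroid and uninjured), with T3 and CCl4, and with T3 and oil. Animals on T3 drank water with 1 µg of it per ml during the final week. The labels describe the knockout only as lacking the receptor gene in the animal; the allele, strain, age and whether WT animals were littermates are not stated in them. Polyadenylated RNA of whole liver was sequenced, and the values used are read counts per gene.

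Thyroid hormone receptors are nuclear receptors that sit on DNA with and without hormone. With T3 they recruit coactivators and raise their target genes; without T3 they hold corepressors, and targets can be kept below the level they would have with no receptor at all. The beta receptor, encoded by Thrb, is the main form in hepatocytes, and Thra encodes the alpha receptor. CCl4 is turned into a toxic radical by Cyp2e1 in the hepatocytes around the central vein. Injured liver then draws in neutrophils and macrophages, activates matrix-forming stellate cells, and secretes acute-phase proteins such as the serum amyloid A proteins under interleukin-6 and interleukin-1.

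The promoters of 4 genes on which the results below turn are shown first: Dio1 and Slc25a45, which were higher in KO with the smallest adjusted p-values among named genes, and Saa1 and Saa2, which were lower by the largest amounts. Each window is the RefSeq sequence of build GRCm38.p6, 5′ to 3′ on the gene's strand, 250 bases before to 50 after the start of the gene. Capitals mark AGGTCA, the hexamer that thyroid hormone receptors and several other nuclear receptors bind, or TGACCT, the same hexamer on the other strand.
Dio1 (chr4:107307119-107307418, minus strand): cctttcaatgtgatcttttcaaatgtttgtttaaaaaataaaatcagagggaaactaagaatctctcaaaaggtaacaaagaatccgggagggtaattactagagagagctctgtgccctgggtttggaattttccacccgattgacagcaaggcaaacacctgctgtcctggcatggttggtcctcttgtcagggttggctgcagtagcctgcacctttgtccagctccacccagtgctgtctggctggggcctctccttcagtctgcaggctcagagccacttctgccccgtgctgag
Slc25a45 (chr19:5877572-5877871, plus strand): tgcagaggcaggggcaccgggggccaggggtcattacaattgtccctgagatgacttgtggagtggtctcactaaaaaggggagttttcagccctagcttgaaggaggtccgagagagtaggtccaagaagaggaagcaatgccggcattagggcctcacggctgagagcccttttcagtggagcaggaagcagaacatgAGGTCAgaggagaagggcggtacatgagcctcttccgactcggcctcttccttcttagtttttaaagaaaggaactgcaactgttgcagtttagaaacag
Saa1 (chr7:46742931-46743230, minus strand): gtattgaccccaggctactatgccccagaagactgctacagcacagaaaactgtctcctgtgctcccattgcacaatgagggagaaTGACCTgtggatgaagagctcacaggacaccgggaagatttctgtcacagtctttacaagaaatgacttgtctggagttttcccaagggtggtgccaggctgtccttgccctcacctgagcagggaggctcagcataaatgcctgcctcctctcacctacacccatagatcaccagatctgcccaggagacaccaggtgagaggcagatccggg
Saa2 (chr7:46751583-46751882, plus strand): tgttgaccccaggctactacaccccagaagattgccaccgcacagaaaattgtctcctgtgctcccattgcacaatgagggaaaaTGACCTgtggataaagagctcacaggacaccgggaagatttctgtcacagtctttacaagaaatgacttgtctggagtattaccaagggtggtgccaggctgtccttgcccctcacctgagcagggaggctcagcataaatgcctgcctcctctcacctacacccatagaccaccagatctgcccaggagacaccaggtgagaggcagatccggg
The letters AGGTCA or TGACCT stood once in the Slc25a45, Saa1 and Saa2 windows and not in the Dio1 window. They were common in general: 16.3% of all 32851 RefSeq windows held them, and 13.3% of the windows of tested genes. The share was 14.6% of 185 windows for genes called higher in KO (142 of 189 genes matched) and 16.9% of 172 windows for genes called lower (129 of 162 matched). The Saa1 and Saa2 windows aligned with 287 identical positions of 301, or 95.3%, so these neighbours on chromosome 7 have near-identical promoters as well as similar transcripts.

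The 8 libraries held 19400146 to 25306799 counts. Correlations between animals of 1 group, on log2 CPM (counts scaled to the size of the library), ran from 0.946 to 0.986 in KO and from 0.92 to 0.978 in WT. The first principal component took 49.6% of the variance and did not separate the genotypes (exact permutation test over 70 arrangements, two-sided p = 0.314), nor did the second, with 16.1% (p = 0.0571). WT animal 2 lay farthest from its group mean, with KO animal 3 and WT animal 4 next. Hepatocyte markers were high in every library: Alb held at least 35900 CPM, Apoa1 at least 1130 CPM and Hnf4a at least 212 CPM. Only 3 counts of 4 Y-linked genes were found over all 32 libraries, so the libraries look female.

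The targeted gene itself did not separate the labels in these livers. Thrb (chr14:17660261-18038090, plus strand) had 23.1, 21.9, 15.9 and 19.1 CPM in KO animals 1 to 4, against 23.8, 10.7, 33.1 and 26.3 CPM in WT animals 1 to 4. The groups overlapped, and the log2 fold change was -0.23 ± 0.21 (SE; adjusted p = 0.600). In T3-treated injured livers the log2 fold change of Thrb was -1.01 ± 0.21 (adjusted p = 9.66e-04), and in uninjured hypothyroid livers -0.72 ± 0.21 (adjusted p = 0.167). A count summed over the whole gene includes reads from exons that a targeted allele may keep, so it does not by itself check the genotype, which is taken from the labels. Thra averaged 10.7 ± 2.10 CPM in KO and 9.92 ± 2.93 CPM in WT (SD, n = 4 each; adjusted p = 0.847).

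The genotypes differed in a small part of the liver transcriptome in this setting. Of 15599 genes tested, 351 passed an adjusted p of 0.05 (2.25%), 189 higher (1.21%) and 162 lower (1.04%) in KO (edgeR quasi-likelihood test, Benjamini-Hochberg adjustment). At an unadjusted p under 0.05 there were 2791. Scaled by library totals alone, which shifted the median of all genes to -0.117 on the log2 scale, the test called 106 higher and 246 lower. Among the called genes, 93 were at least 2-fold higher, 80 at least 2-fold lower and 178 changed by less, with a median absolute log2 fold change of 0.993. The 4 KO and 4 WT values did not overlap for 122 of the genes called higher and 85 of those called lower. Over all tested genes, 2.33% did not overlap with KO above WT and 1.83% with KO below WT.

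These counts depended strongly on single animals. Without WT animal 2 the number called was 70 (48 higher, 22 lower), of which 45 and 22 were among the genes above; without WT animal 4 it was 1746 (906 higher, 840 lower). It was 88 without KO animal 4, 121 without KO animal 2, 133 without WT animal 1 and 949 without KO animal 3. The spread of each gene was estimated from all 32 libraries, with a common coefficient of variation of 0.242. Fitted alone, the 8 libraries gave a common coefficient of variation of 0.334 and 3 called genes, all higher in KO, namely Slc25a45, Sult2a1 and the predicted gene Gm18562 (1008 genes at an unadjusted p under 0.05).

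Of 54 called genes followed one by one, 23 stayed called when each of the 8 libraries was left out in turn. These were Dio1, Gpd2, Slc25a45, Abca3, Tm6sf2, Slc22a27, Slc22a7, Tlcd2, Ces3b, Cyp17a1, Sult2a1, Sult2a3, Ccnd1 and Abhd6 among the rises and Saa1, Saa2, Lcn2, Osbpl2, C9orf72, Cpeb1, Arsa, Ndrg1 and Cyp4a12a among the falls. The other 31 lost the call without at least 1 animal: 29 without WT animal 2, 25 without KO animal 4, 20 without KO animal 2, 17 without WT animal 1, 12 without KO animal 1, 6 without WT animal 3, 2 without KO animal 3 (Mmp19 and Mup21) and 1 without WT animal 4 (Oat).

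**Figure D1:**
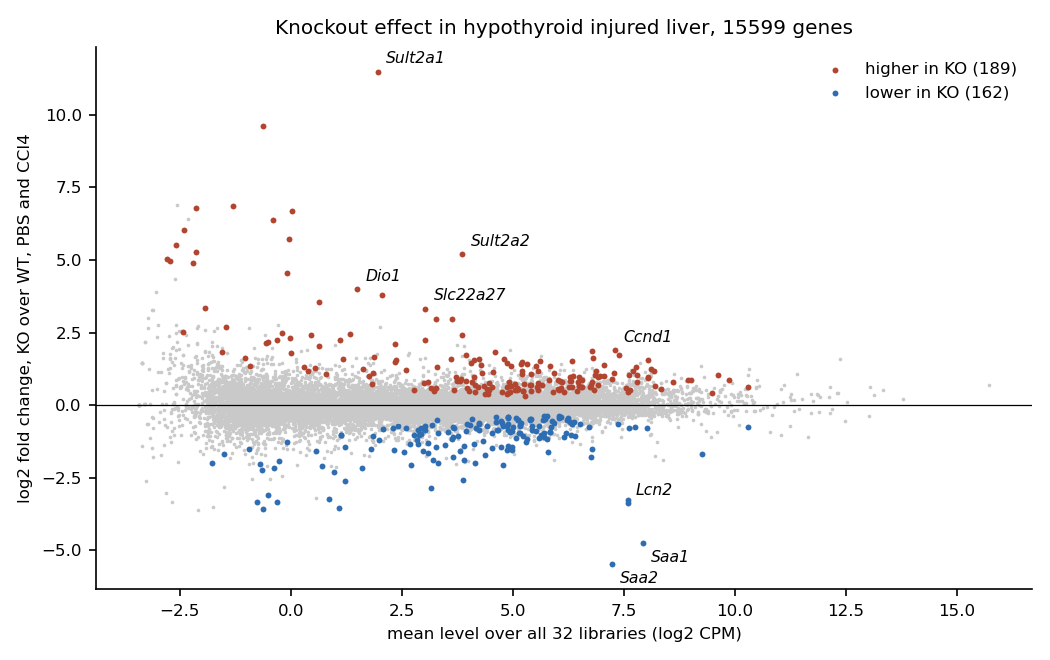
Mean level over all 32 libraries (log2 CPM, x axis) against the log2 fold change of KO over WT in hypothyroid injured liver (y axis) for 15599 genes. Red points are the 189 genes called higher, blue points the 162 called lower and grey points the rest; Sult2a1 is highest and Saa1, Saa2 and Lcn2 are lowest among abundant genes.

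The rises with the smallest adjusted p included 2 genes listed as T3-induced, Dio1 and Gpd2. Dio1, the deiodinase that converts thyroxine to T3 and a standard marker of T3 action in liver, had the smallest adjusted p of all. It measured 8.17, 14.97, 3.95 and 20.02 CPM in KO animals, against 0.681, 0.412, 1.00 and 0.808 CPM in WT animals. All KO values lay above all WT values, with a log2 fold change of 4.0 ± 0.35 (adjusted p = 4.92e-08). Gpd2, the mitochondrial glycerol-3-phosphate dehydrogenase, measured 59.2, 31.2, 48.3 and 59.2 CPM in KO animals, against 15.3, 22.7, 13.0 and 15.1 CPM in WT animals. The groups did not overlap, and the log2 fold change was 1.58 ± 0.19 (adjusted p = 1.57e-05). Slc25a45, a mitochondrial solute carrier, varied little within each genotype: 29.1, 28.7, 22.9 and 31.7 CPM in KO animals, against 9.14, 8.21, 8.93 and 7.80 CPM in WT animals. Its log2 fold change was 1.72 ± 0.19 (adjusted p = 3.68e-06), and it stayed called under every one of the 16 alternative settings tried.

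The same genes lay far higher in WT livers given hormone. Dio1 averaged 11.8 ± 7.13 CPM in hypothyroid injured KO livers, against 0.726 ± 0.247 CPM in hypothyroid injured WT livers (SD, n = 4 each). With T3 it averaged 114 ± 26.3 CPM in injured KO livers, against 1000 ± 123 CPM in injured WT livers. Gpd2 averaged 49.4 ± 13.2 CPM in KO and 16.5 ± 4.24 CPM in WT without hormone, and 41.7 ± 6.50 CPM in KO and 123 ± 9.80 CPM in WT with T3. Slc25a45 averaged 28.1 ± 3.74 CPM in KO and 8.52 ± 0.626 CPM in WT without hormone, and 47.7 ± 5.05 CPM in KO and 130 ± 15.9 CPM in WT with T3. For all 3 genes the injured KO means, with and without T3, lay between the WT means.

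Several transporters and lipid genes rose with them. Abca3, a lipid transporter best known for loading surfactant in the lung, measured 81.2, 99.1, 54.4 and 103 CPM in KO animals, against 28.1, 21.5, 28.3 and 40.2 CPM in WT animals (log2 fold change 1.52 ± 0.19; adjusted p = 1.57e-05). Tm6sf2, which helps load lipid onto very-low-density lipoprotein, measured 47.5, 52.6, 39.1 and 63.2 CPM in KO animals, against 18.9, 12.9, 22.8 and 25.5 CPM in WT animals (1.34 ± 0.16; adjusted p = 1.57e-05). The KO and WT ranges did not overlap for either gene. The organic anion transporter genes Slc22a27 and Slc22a7 had log2 fold changes of 3.32 ± 0.44 and 3.57 ± 0.56 (adjusted p = 4.98e-05 and 5.20e-04). Tlcd2, a membrane lipid gene, had 2.98 ± 0.46, the carboxylesterase gene Ces3b 2.98 ± 0.48, and Cyp17a1, a steroid hydroxylase, 2.43 ± 0.43 (adjusted p = 5.20e-04, 6.56e-04 and 2.40e-03). None of these 5 genes overlapped between the groups.

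Sult2a1 had the largest rise of all called genes, and 3 other Sult2a genes rose with it; they encode enzymes that add sulfate to hydroxysteroids and bile acids. Sult2a1 measured 275, 164, 18.4 and 175 CPM in KO animals, from 7692, 3398, 497 and 3875 counts, against 1, 0, 2 and 2 counts in WT animals. Its log2 fold change was 11.49 ± 1.71 (adjusted p = 3.57e-04), and it stayed called under all 16 settings. Sult2a2 measured 141, 138, 28.3 and 174 CPM in KO animals, against 0.521, 0.948, 5.04 and 6.46 CPM in WT animals (5.21 ± 1.10; adjusted p = 0.0112). Sult2a3 and Sult2a5 were also called, at 6.70 ± 1.28 and 5.72 ± 1.20 (adjusted p = 4.66e-03 and 0.0111), and KO animal 3 was the lowest KO animal for all 4. These neighbours on chromosome 7 are close copies that can exchange reads, so the value of each is less certain than their shared direction. In hypothyroid uninjured livers Sult2a1 averaged 415 ± 40.1 CPM in KO against 1.05 ± 0.862 CPM in WT. With T3 and oil it ran from 301 to 475 CPM in KO and from 0.483 to 120 CPM in WT. With T3 and CCl4 it ran from 9.99 to 181 CPM in KO and from 6.86 to 40.5 CPM in WT. Those last 2 groups overlapped, and the gene was not called between them (adjusted p = 0.124).

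**Figure D2:**
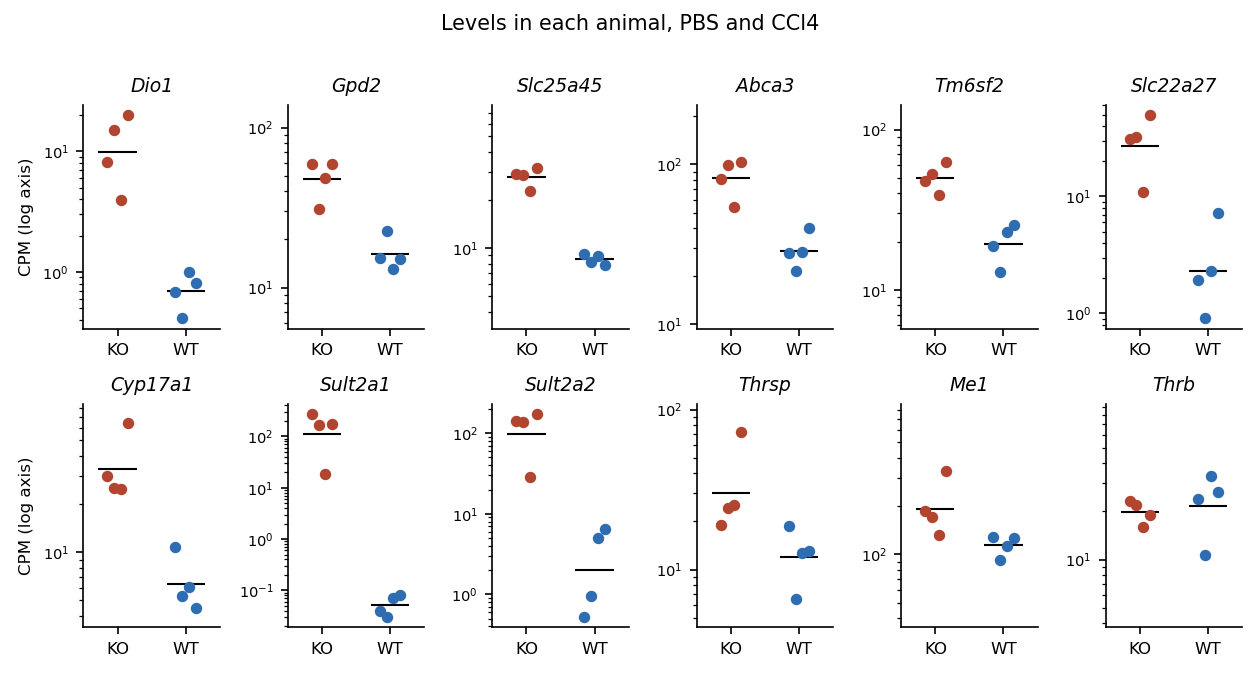
Level in CPM (log axis, own range in each panel) of 12 genes in the 4 KO animals (red, left) and 4 WT animals (blue, right) given PBS and CCl4; bars are geometric means and 0 is drawn at 0.03. The groups separate for 11 of the panels, though not past the test for Thrsp and Me1, and overlap for Thrb.

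Across the list of 17 T3-induced genes, 2 were called higher (Dio1 and Gpd2), against 1.21% of all genes, and none lower, and the median log2 fold change was 0.882, against -0.011 over all genes tested; 15 of the 17 were above 0. The count was 4 without KO animal 3, 5 without WT animal 4, 3 without WT animal 3 and 2 with any other animal left out. Genes called higher over all tested rose as well, from 189 to 537 without KO animal 3 and 906 without WT animal 4. Thrsp, which promotes lipid synthesis, measured 18.9, 24.1, 25.2 and 71.9 CPM in KO animals, against 18.8, 6.60, 12.8 and 13.1 CPM in WT animals (1.45 ± 0.55; adjusted p = 0.153). Me1, the malic enzyme that supplies NADPH, had 0.83 ± 0.32 (adjusted p = 0.166). Among 14 genes of thyroid hormone transport and metabolism, 2 were called higher, against 1.21% of all genes: Dio1 and Sult1a1, a phenol sulfotransferase. Sult1a1 had 0.81 ± 0.20 (adjusted p = 0.0306), and its call was lost without KO animal 2, KO animal 4, WT animal 1 or WT animal 2. With any of these left out, 1 gene of the list was called higher. The count was 4 without KO animal 3 and 7 without WT animal 4. None of the 18 receptor partners and coregulators was called, and Rxra, the usual partner of the receptor on DNA, had 0.61 ± 0.20 (adjusted p = 0.0975).

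Most lipid and bile acid genes had positive values, and few passed the test. All 16 lipogenesis genes had positive values with a median log2 fold change of 0.828, and none was called with all 8 animals. DESeq2 called 6 higher. The count was 7 without KO animal 3, 5 without WT animal 4, 2 without WT animal 3 and 1 without KO animal 1. It was 0 when any 1 of the other animals was left out. Calls higher over all genes moved too, from 189 to 360 by DESeq2, 537 without KO animal 3 and 906 without WT animal 4. The elongase Elovl6 had 1.21 ± 0.35 (adjusted p = 0.0617), Acaca, the first enzyme of fatty acid synthesis, 0.77 ± 0.23 (adjusted p = 0.0738), and fatty acid synthase, Fasn, 1.44 ± 0.45 (adjusted p = 0.0830). Scd1, a desaturase, measured 4110, 5262, 7534 and 26950 CPM in KO animals, against 4537, 3459, 2385 and 4033 CPM in WT animals (1.61 ± 0.48; adjusted p = 0.0740), so KO animal 4 stood far above the rest. Fasn and Scd1 were named after their values were seen. Of 21 cholesterol synthesis genes only Sc5d, a late sterol desaturase, was called (1.20 ± 0.32; adjusted p = 0.0464; median of the list 0.59); without WT animal 3 it was 7 with a median of 1.04, and without WT animal 2 none. Of 16 bile acid genes Cyp27a1, the mitochondrial sterol hydroxylase, was called (1.12 ± 0.28; adjusted p = 0.0336; median 0.649). Without KO animal 3 or WT animal 4, 8 of the bile acid genes were called (median 0.957 and 1.22), and none without any 1 of the other 6 animals. Cyp7a1, the rate-limiting enzyme of bile acid synthesis, measured 57.4, 35.96, 0.222 and 23.5 CPM in KO animals, against 3.09, 0.330, 0.143 and 14.5 CPM in WT animals (2.7 ± 0.93; adjusted p = 0.117). None of the 21 genes of fatty acid oxidation and ketogenesis was called, with a median of 0.41 and Cpt1a, the carnitine shuttle enzyme, at 0.88 ± 0.31 (adjusted p = 0.123). In that list 7 were called higher without KO animal 3 (median 0.592) and 9 without WT animal 4 (median 0.638). None was called without any 1 of the other 6 animals.

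A further 4 hepatocyte lists had 1 or 2 calls each. Of 15 periportal genes, Arg1, the last enzyme of the urea cycle, measured 1004, 1227, 1056 and 1406 CPM in KO animals, against 633, 328, 455 and 890 CPM in WT animals (1.02 ± 0.22; adjusted p = 0.0121). Cyp2f2, a periportal P450, was also called (1.57 ± 0.39; adjusted p = 0.0320), all 15 values were positive, and the median was 0.635. Both calls were lost without WT animal 2, and the median was then 0.458. Both were also lost without KO animal 4. By contrast, 5 periportal genes were called without KO animal 3 and 8 without WT animal 4. Genes called higher over all tested went from 189 to 537 without KO animal 3 and to 906 without WT animal 4. Among 16 pericentral genes Oat, ornithine aminotransferase, was called lower (-1.51 ± 0.42; adjusted p = 0.0499), at 42.3 to 78.7 CPM in KO and 141 to 314 CPM in WT. Cyp2e1, the enzyme that activates CCl4, measured 625, 944, 109 and 631 CPM in KO animals, against 808, 1109, 478 and 1852 CPM in WT animals (-0.88 ± 0.42, adjusted p = 0.271). Of 16 secreted hepatocyte proteins Apoc3, an apolipoprotein of triglyceride-rich particles, was called (0.86 ± 0.24, adjusted p = 0.0484), and Alb had 0.68 ± 0.23 (adjusted p = 0.106). Of the 16, 8 were called higher without KO animal 3 and 5 without WT animal 4. None was called without KO animal 2, KO animal 4, WT animal 1, WT animal 2 or WT animal 3. Of 18 hepatocyte transcription factors Nr1h3, the oxysterol receptor LXR alpha, was called (0.62 ± 0.17; adjusted p = 0.0484). In whole liver RNA, fewer cells of a type and less RNA per cell cannot be told apart.

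Among 14 genes of the growth hormone and IGF1 axis 1 rose and 1 fell. With an animal left out, 4 were called higher without KO animal 3 and 3 without WT animal 4. None was called higher without KO animal 2, KO animal 4, WT animal 1 or WT animal 2. Genes called higher over all tested were 537 without KO animal 3 and 906 without WT animal 4, against 189 with all 8 animals. Mup3, a major urinary protein gene, measured 125, 480, 221 and 540 CPM in KO animals, against 93.1, 114, 56.7 and 146 CPM in WT animals (1.74 ± 0.39; adjusted p = 0.0194). Cyp4a12a, a P450 that is typical of male mouse liver, had at most 0.678 CPM in KO and 0.681 to 5.29 CPM in WT (-3.33 ± 0.65; adjusted p = 9.96e-03). Mup21 fell too, with 0.701 to 4.14 CPM in KO and 4.82 to 7.76 CPM in WT (-1.51 ± 0.40; adjusted p = 0.0427). Mup genes are close copies and can exchange reads.

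The deepest falls among named genes were in acute-phase proteins, which hepatocytes secrete in inflammation. Saa1 measured 10.8, 176, 63.5 and 23.9 CPM in KO animals, against 472, 3511, 2159 and 1173 CPM in WT animals. Every WT value was above every KO value, though values varied widely within each genotype, and the log2 fold change was -4.74 ± 0.81 (adjusted p = 1.43e-03). Saa2 measured 4.37, 109, 22.3 and 9.76 CPM in KO animals, against 409, 3251, 1893 and 957 CPM in WT animals (-5.48 ± 0.99; adjusted p = 2.87e-03), with the animals in the same order as for Saa1. Their near-identical sequences may share reads. Lcn2, the iron-siderophore binding protein lipocalin 2, measured 42.8, 109, 77.8 and 59.1 CPM in KO animals, against 330, 1587, 896 and 188 CPM in WT animals (-3.38 ± 0.64; adjusted p = 4.24e-03). Saa3 measured 4.15, 14.7, 17.7 and 13.3 CPM in KO animals, against 54.5, 29.8, 28.6 and 50.9 CPM in WT animals (-1.72 ± 0.43; adjusted p = 0.0331). The groups did not overlap for any of these 4 genes.

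Of the 23 acute-phase genes tested, 6 were called lower and none higher, against 1.04% of all genes called lower, and the median log2 fold change was -1.02. The others called were Serpina3n, a protease inhibitor (-1.67 ± 0.39; adjusted p = 0.0236), and the metallothionein gene Mt2 (-3.26 ± 0.78; adjusted p = 0.0271), which lies outside the naming rule and was added after its values were seen. Haptoglobin, Hp, had -1.09 ± 0.34 (adjusted p = 0.0866), also added after its values were seen. Without WT animal 2, Saa1, Saa2 and Lcn2 stayed called (adjusted p = 6.51e-03, 0.0102 and 0.0297), 3 of the 23 were called and the median was -0.765. Without WT animal 4, 11 were called. Lower calls over all genes were 22 without WT animal 2 and 840 without WT animal 4. Fitted on the 8 libraries alone, Saa1, Saa2 and Lcn2 missed the threshold (adjusted p = 0.354, 0.362 and 0.304) at almost the same fold changes.

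The calls among neutrophil genes rested on 1 animal. Of 10 tested of 14 listed, 4 were called lower, against 1.04% of all genes: S100a8, S100a9, Retnlg and Mmp8. S100a8, a subunit of the neutrophil protein calprotectin, measured 3.44, 3.80, 4.10 and 7.68 CPM in KO animals, against 9.10, 105, 16.1 and 5.66 CPM in WT animals (-2.83 ± 0.59; adjusted p = 0.0109). WT animal 2 alone lay far above the others, and the KO and WT ranges overlapped. The summed level of the list was 22.5, 26.2, 30.5 and 38.8 CPM in KO animals, against 42.1, 355, 64.7 and 31.7 CPM in WT animals. Without WT animal 2 none of 11 tested neutrophil genes was called, the median was -0.239 in place of -1.82, and S100a8 had -1.13 (adjusted p = 0.245). The defining genes Ly6g, Camp, Mpo and Elane were too low to be tested.

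**Figure D3:**
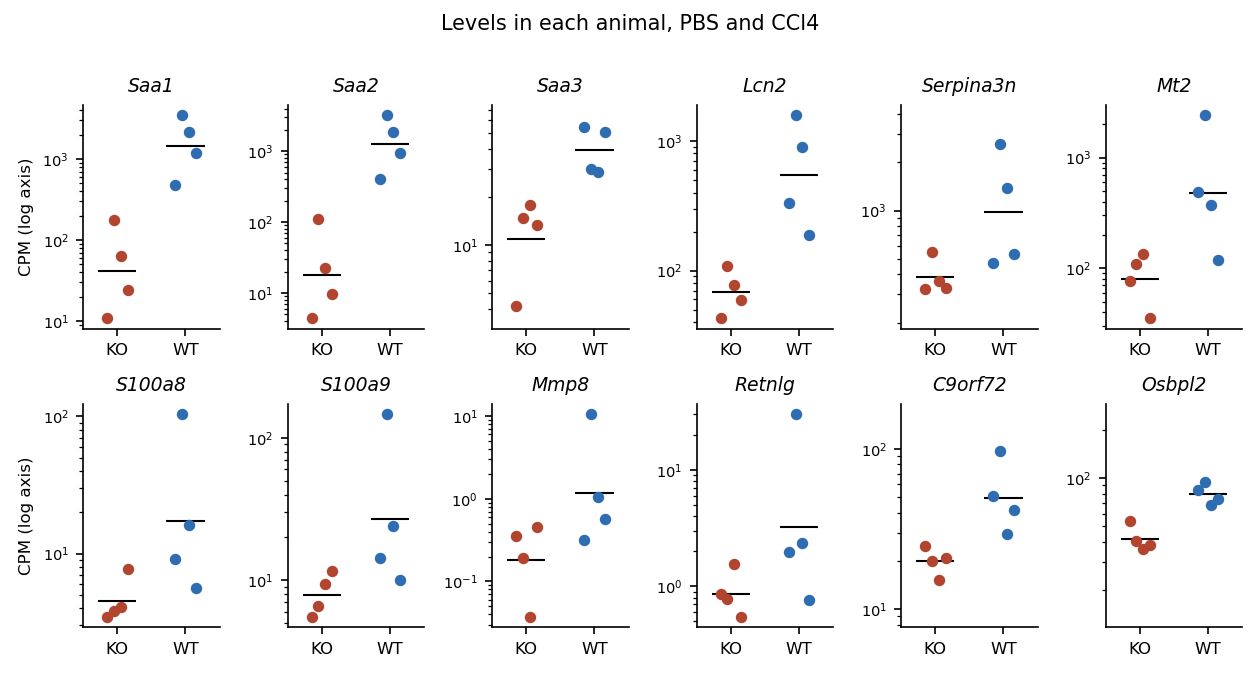
Level in CPM (log axis, own range in each panel) of 12 genes lower in KO, in the 4 KO animals (red, left) and 4 WT animals (blue, right) given PBS and CCl4; bars are geometric means. The Saa genes, Lcn2, C9orf72 and Osbpl2 separate the groups, while WT animal 2 stands alone for S100a8, S100a9, Mmp8 and Retnlg.

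Chemokine, cytokine and interferon genes gave a few further falls. Ccl7 and Cxcl2, which draw in monocytes and neutrophils, were called lower (-3.53 ± 0.76 and -2.62 ± 0.72; adjusted p = 0.0131 and 0.0485), with WT animal 2 at 47.5 and 26.4 CPM and the other 3 WT animals at or below 4.47 and 3.65 CPM. Il1rn, the interleukin-1 receptor antagonist, was at 202 CPM in WT animal 2 (-2.06 ± 0.50; adjusted p = 0.0297). None of these 3 calls held without that animal. Lifr, a receptor chain of the interleukin-6 family, was higher (0.64 ± 0.17; adjusted p = 0.0461). The antiviral gene Rsad2 measured 30.9, 20.9, 13.5 and 14.8 CPM in KO animals, against 73.7, 46.4, 71.6 and 19.1 CPM in WT animals (-1.39 ± 0.29, adjusted p = 0.0107). Mx2 had -0.84 ± 0.21 (adjusted p = 0.0331). Of the 21 interferon-stimulated genes these 2 were called, against 9 without WT animal 4 and none without KO animal 4 or WT animal 1. Lower calls over all genes moved likewise, from 162 to 840 without WT animal 4, 27 without KO animal 4 and 62 without WT animal 1.

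A further 7 named genes fell without overlap of the groups. Osbpl2, a lipid transfer protein, measured 54.1, 40.6, 36.03 and 38.1 CPM in KO animals, against 84.4, 94.5, 68.0 and 73.5 CPM in WT animals (-0.92 ± 0.14; adjusted p = 5.20e-04), the smallest adjusted p among named genes that fell. C9orf72, a regulator of autophagy and endosomal traffic, measured 24.8, 19.98, 15.2 and 20.7 CPM in KO animals, against 50.7, 96.9, 29.5 and 41.4 CPM in WT animals (-1.44 ± 0.23; adjusted p = 6.27e-04). Cpeb1, which binds messenger RNA to control its translation, had -1.22 ± 0.22, and Arsa, the lysosomal arylsulfatase A, -0.92 ± 0.17 (adjusted p = 2.60e-03 and 2.87e-03). Ndrg1, a stress-responsive gene, and Slc7a1, a carrier of arginine and lysine, had -1.77 ± 0.33 and -1.57 ± 0.32 (adjusted p = 4.24e-03 and 8.69e-03), and Wfdc3 -1.55 ± 0.42 (adjusted p = 0.0461).

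Few scar and proliferation genes passed the test. Of 25 matrix genes Col15a1, a basement membrane zone collagen, was called higher, at 13.9, 18.3, 11.2 and 22.5 CPM in KO animals and 10.98, 2.76, 5.97 and 6.54 CPM in WT animals (1.32 ± 0.28; adjusted p = 0.0129), and the median of the list was 0.0586. Col1a1, the main scar collagen, averaged 25.99 ± 10.9 CPM in KO and 24.9 ± 17.4 CPM in WT (SD, n = 4 each; 0.06 ± 0.41, adjusted p = 0.960). Timp1, a metalloproteinase inhibitor, had -0.88 ± 0.41 (adjusted p = 0.257), and Acta2, the myofibroblast actin, 0.32 ± 0.54 (adjusted p = 0.801). Of 21 matrix-degrading enzymes and inhibitors Mmp19 was higher (0.65 ± 0.17; adjusted p = 0.0464) and Mmp8, counted above with neutrophils, lower. Of 26 cell cycle genes Ccnd1, the cyclin of cell cycle entry, was called, at 413, 400, 228 and 337 CPM in KO animals and 129, 21.9, 81.8 and 139 CPM in WT animals (1.89 ± 0.36; adjusted p = 4.19e-03), without overlap. The proliferation marker Mki67 had 0.63 ± 0.42 (adjusted p = 0.448), and the median of the list was 0.427. Ccnd1 was also raised by T3 in uninjured WT, by 3.96 ± 0.39 (adjusted p = 5.09e-09).

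Of the 35 lists, 18 had no called member with all 8 animals, with medians from -0.337 to 0.828. These 18 lists had 291 tested members. Without KO animal 3, 8 of the 18 held a call (21 genes), while 949 of all 15792 genes tested were called. Without WT animal 4, 13 did (31 genes), while 1746 of all 15822 were called. The list counts thus rose along with the calls over all genes. The 18 lists include the marker lists of myofibroblasts (median 0.0889), quiescent stellate cells (-0.0272), Kupffer cells (0.0522), monocyte-derived and scar macrophages (-0.0446), lymphocytes (-0.299), sinusoidal endothelium (-0.103), bile duct cells (-0.2) and other tissues (-0.104). Single markers of these cells, such as Clec4f of Kupffer cells (-0.05 ± 0.30), Trem2 of scar macrophages (0.02 ± 0.43), Krt19 of bile ducts (-0.27 ± 0.39) and Sox9 of ductular cells (-0.92 ± 0.31), all missed the test (adjusted p = 0.950, 0.987, 0.761 and 0.102). Cd8a, of T cells, had -1.70 ± 0.50 (adjusted p = 0.0697). The remaining lists without a call covered xenobiotic P450 enzymes (median 0.176), TGF-beta signalling (-0.0852), p53 targets (-0.0387), NRF2 targets (0.0305), the integrated stress response (-0.337), fetal hepatocyte genes (-0.183) and oxidative phosphorylation (0.218, with Cox5a at 0.40 ± 0.14; adjusted p = 0.117).

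**Figure D4:**
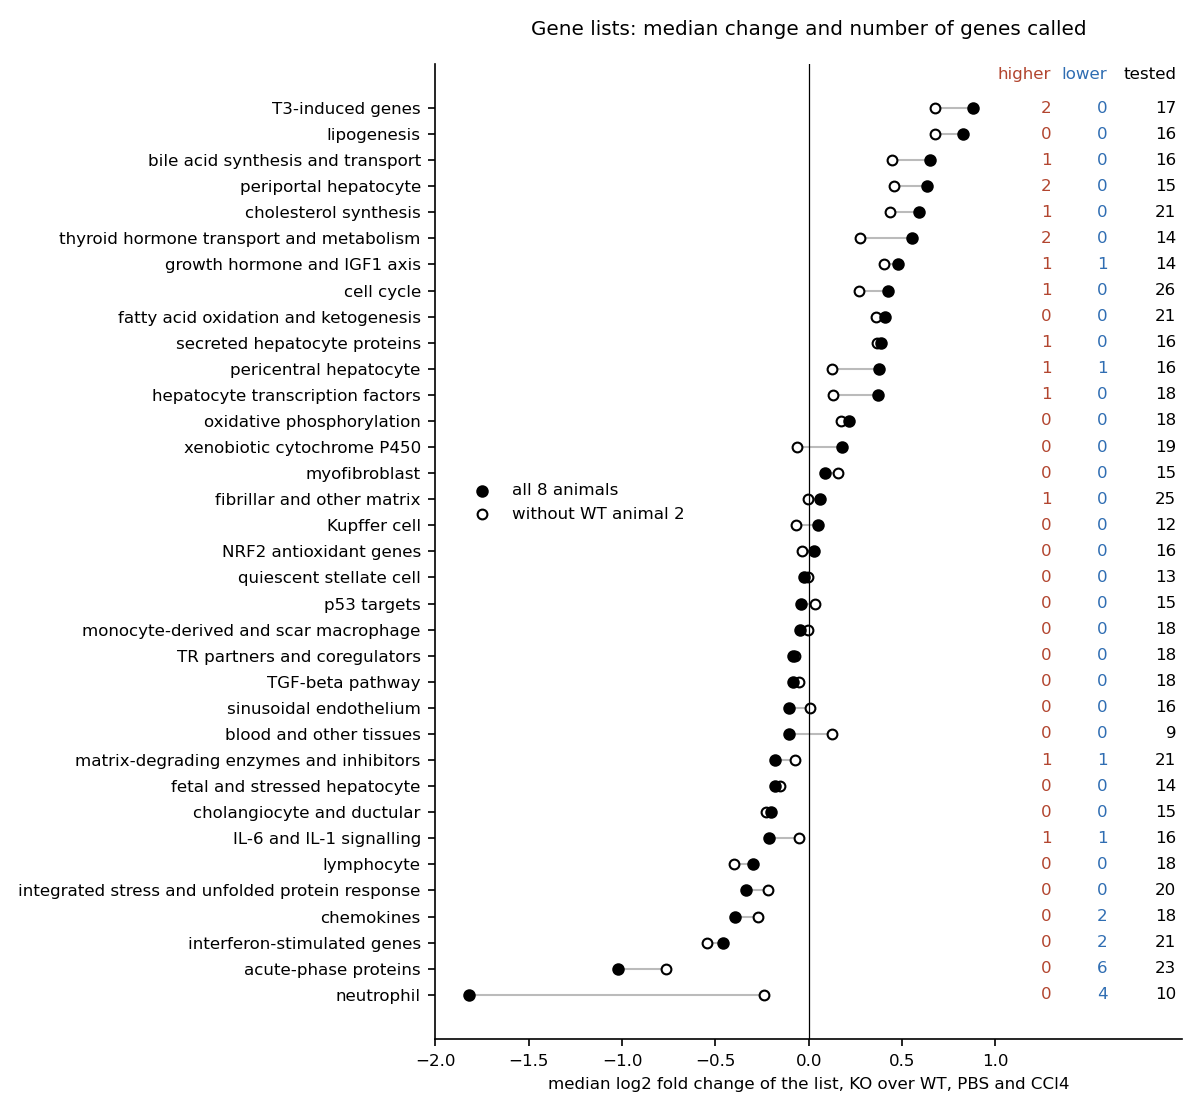
Median log2 fold change of KO over WT in hypothyroid injured liver for each of the 35 gene lists (x axis), with all 8 animals (filled) and without WT animal 2 (open), and the number of genes called higher, called lower and tested. T3-induced genes and lipogenesis lie at the top, acute-phase and neutrophil genes at the bottom, and the neutrophil median is -1.82 with and -0.239 without that animal.

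Whether the knockout difference depends on injury was asked by setting it beside the uninjured hypothyroid livers, which share no library with it. There 84 genes were called (0.538%), 63 higher (0.404%) and 21 lower (0.135%). Of these, 43 were called in both comparisons, 36 higher and 7 lower in both and none in opposite directions, which is 12.3% of the 351 and 51.2% of the 84. Dio1 had 3.30 ± 0.38 in uninjured livers, Gpd2 2.41 ± 0.20, Slc25a45 1.95 ± 0.19, Abca3 1.29 ± 0.19 and Arsa -0.91 ± 0.17, and all 5 were called there too. The same sign was seen for 297 of the 351 genes (84.6%), against 54.8% over all genes tested. Genes called higher in injured livers had a median log2 fold change of 0.39 in uninjured livers, and genes called lower had -0.13.

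The difference between the knockout effects with and without injury passed the test for 3 genes (0.0192%), all with a lower value under CCl4; DESeq2 called 4, and 1242 genes had an unadjusted p under 0.05. For Saa1 the difference, CCl4 minus oil, was -5.81 ± 1.06 and for Saa2 -7.23 ± 1.32, each with an adjusted p of 0.0384. Saa1 averaged 13.7 ± 10.1 CPM in uninjured KO livers and 6.53 ± 1.11 CPM in uninjured WT livers; after CCl4 it averaged 68.5 ± 75.1 CPM in KO livers and 1830 ± 1320 CPM in WT livers (SD, n = 4 each). The third gene, Ciapin1, an iron-sulfur assembly factor, had -0.98 ± 0.18 (adjusted p = 0.0384). This count fell to 0 when any 1 of 10 libraries was left out, of 16 left out in turn, and was 14 without WT animal 4.

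With T3 given, many of these genes had a knockout difference of the opposite sign. Between T3-treated injured KO and WT livers 3566 genes were called (22.9%), 1621 higher (10.4%) and 1945 lower (12.5%) in KO. Of the 351 genes, 170 were called there too, which is 48.4% of the 351 and 4.77% of the 3566: 109 were higher in KO without hormone and lower in KO with hormone, 56 were lower without and higher with hormone, and 5 moved the same way in both. Dio1 had -3.14 ± 0.30 with T3, Gpd2 -1.56 ± 0.19, Slc25a45 -1.45 ± 0.18 and Slc22a7 -6.22 ± 0.53. Saa1 had 2.63 ± 0.73 and Lcn2 3.12 ± 0.63 with T3, again opposite to their values without it. Of the 23 acute-phase genes, 17 were called higher in KO with T3 and none lower. The difference between the 2 knockout effects, PBS minus T3, passed the test for 3538 genes (22.7%), 1935 with a higher value on PBS (12.4%) and 1603 with a lower one (10.3%). It was 7.14 ± 0.46 for Dio1, 3.17 ± 0.26 for Slc25a45, 3.14 ± 0.27 for Gpd2 and 9.79 ± 0.75 for Slc22a7 (adjusted p = 2.95e-11, 3.01e-09, 7.36e-09 and 1.32e-09). Sult2a1 kept a positive value on T3, 2.09 ± 0.98 (adjusted p = 0.124), and its difference between the 2 effects was 9.41 ± 1.98 (adjusted p = 1.06e-03).

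**Figure D5:**
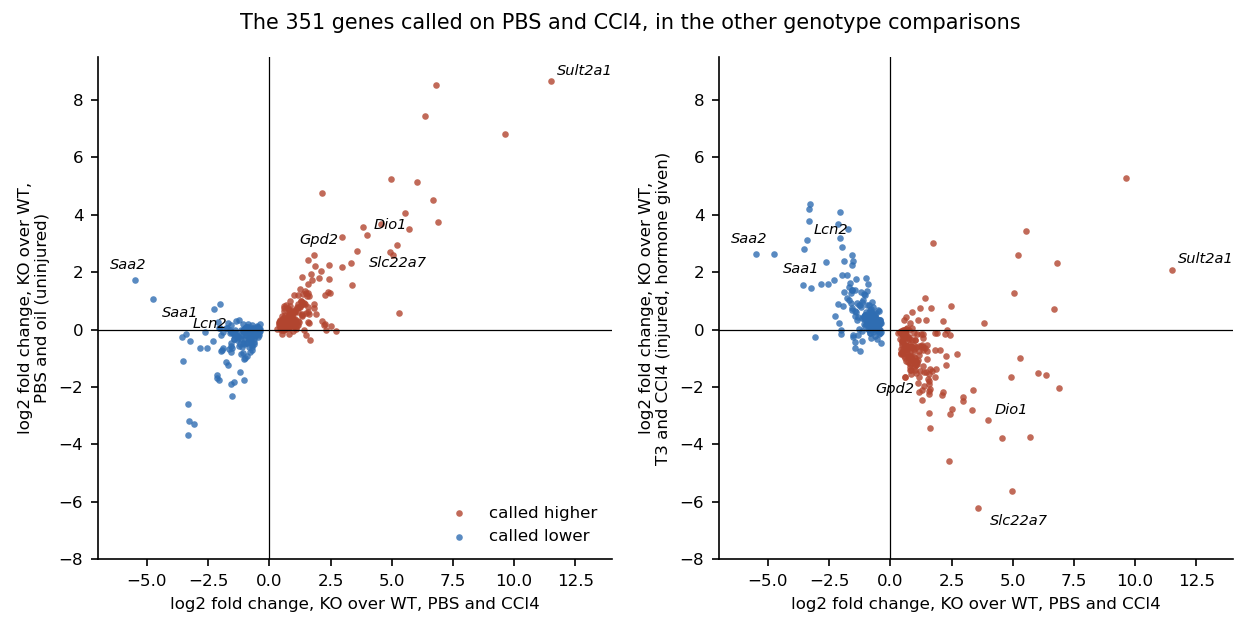
Log2 fold change of KO over WT in hypothyroid injured liver (x axis) of the 351 called genes against the same value in uninjured hypothyroid liver (left panel, y axis) and in T3-treated injured liver (right panel, y axis); red genes were called higher and blue genes lower. On the left 84.6% lie on the same side of 0 on both axes, against 54.8% of all genes tested, and on the right 14%, against 37.6%.

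The called genes were also set beside the response to T3 in uninjured WT livers, a comparison added after the data were seen and made from other libraries. T3 raised 2970 genes there (19%) and lowered 2531 (16.2%). Of the 189 genes higher in hypothyroid injured KO, 131 (69.3%) were raised by T3 in uninjured WT and 7 (3.7%) lowered. Of the 162 genes lower in KO, 47 (29%) were lowered by T3 and 14 (8.64%) raised. Dio1, Gpd2, Slc25a45, Abca3 and Cyp17a1 responded to T3 by 11.1 ± 0.45, 3.91 ± 0.21, 3.84 ± 0.20, 2.41 ± 0.19 and 7.12 ± 0.53 (log2; all called). The falling genes differed among themselves: T3 lowered Ndrg1 by a log2 value of -3.20 ± 0.36 and Arsa by -1.47 ± 0.17, while Saa1 had 1.43 ± 0.73 (adjusted p = 0.130), Lcn2 1.15 ± 0.61 (0.146), C9orf72 -0.08 ± 0.23 (0.827) and Osbpl2 -0.15 ± 0.14 (0.454). Without WT animal 2, 39 of the 48 genes called higher (81.2%) were raised by T3 and none lowered.

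Genes near the targeted locus were counted apart. Of 86 tested genes within 10 Mb of Thrb, 2 were called (2.33%): Nkiras1, an inhibitor of NF-kappa-B signalling that starts 0.233 Mb from Thrb (0.60 ± 0.13; adjusted p = 0.0111), and Abhd6, a lipase (0.82 ± 0.16; adjusted p = 4.39e-03). Within 20 Mb it was 8 of 156 (5.13%), and on chromosome 14 as a whole 14 of 508 (2.76%). Chromosome 19 had the highest share, 23 of 544 (4.23%), with 20 of them higher in KO.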

How the data were processed

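Liver RNA from 32 mice was sequenced as polyadenylated RNA. The authors deposited 1 table of raw counts, whole numbers per gene that are not normalized, for 52636 genes. The submitters' processing notes name the build GRCm38 and, with no roles, STAR 2.7.9a, cutadapt, Trim Galore and FastQC 0.11.5. No source used here gives the counting tool, strand setting or annotation, so reads of a gene and its antisense partner cannot be told apart. Per the labels' protocols, 2 library kits were used, TruSeq Stranded and TruSeq v2; which libraries had either is not stated, so kit and group cannot be told apart. Columns were matched to animals by the animal number in the labels. GENCODE vM21 gave symbols and positions for 52489 genes; the other 147 held at most 0.00558% of any library. 

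Differential expression used edgeR 4.0.16 (R 4.3.3, limma 3.58.1): TMM factors, the filterByExpr filter (minimum count 10, minimum total 15), 1 mean per group over all 32 libraries, the quasi-likelihood F test and Benjamini-Hochberg adjustment over 15599 genes. Adjusted p-values in the text come from it unless DESeq2 1.42.0 is named. Called means an adjusted p under 0.05. Values after ± are standard errors beside log2 fold changes and SD beside CPM, which were computed here with TMM factors. CPM are not scaled for gene length, so levels are compared between animals and not between genes. Replicates are separate animals by their labelled numbers, so the spread includes biological variation.

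The comparison, the gene lists and the tests were chosen with earlier results of these data known. Named genes were Thrb and Thra, the 10 largest rises and falls among called genes that reach 5 CPM without overlap of the groups, the 6 smallest adjusted p in each direction, up to 4 called members of a list (or the 2 smallest p where fewer were called), and 16 fixed genes; clone names were only counted. One gene that the rule picked is not reported here and stays in the counts. On simulated counts for 15599 genes with 200 changed, the test found 52% of genes changed by a log2 value of 1 and 92% of those changed by 2, with 6 false calls. These counts were drawn with the spread of the fit to all 32 libraries (common coefficient of variation 0.242). The 8 libraries fitted alone had 0.334, and the simulation held no animal that stood apart. Its shares therefore do not measure what the test finds, or calls falsely, in the 2 groups compared. Alternatives were the scaling, the filter, the tool, the libraries fitted, the threshold, the replicate number as a block and each library left out.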

Additional observations from a re-analysis of the deposited data

Results flagged for a closer look

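A value was looked at again where 1 animal of a group of 4 lay apart from the other 3 by more than Dixon's critical share of the group's range. Chance gives about 1 in 20 such cases for independent, normally distributed values. The values here are CPM of genes measured in the same animals, many of them named for those values. The number of cases is therefore not to be read against 1 in 20. Of 162 groups of 4 values examined, 24 met this, 9 of them in WT animal 2 and 8 in KO animal 4. WT animal 2 stood high for S100a8 (105 CPM), S100a9 (148 CPM), Retnlg (30.3 CPM), Mmp8 (10.6 CPM), Ccl7 (47.5 CPM), Cxcl2 (26.4 CPM), Il1rn (202 CPM), Wfdc3 (110 CPM) and the metallothionein gene Mt2 (2420 CPM). KO animal 4 stood high for Scd1 (27000 CPM), Thrsp (71.9 CPM), Cpt1a (332 CPM), Cyp17a1 (64.2 CPM), S100a8 (7.68 CPM) and Cyp4a12a (0.678 CPM) and low for Oat (42.3 CPM) and Sox9 (12.3 CPM). WT animal 4 stood high for Oat (314 CPM), Ces3b (14.3 CPM), Slc22a7 (1.41 CPM), Sult2a3 (0.404 CPM) and the Kupffer cell gene Clec4f (63.1 CPM). KO animal 2 stood high for Slc22a7 (14.4 CPM) and KO animal 3 for Cxcl2 (2.73 CPM).

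The knockout effect differed between injured and uninjured hypothyroid livers, by the test of the difference itself, for 3 genes: Saa2 (-7.23), Saa1 (-5.81) and Ciapin1 (-0.979, log2, CCl4 minus oil). It differed between hypothyroid and T3-treated injured livers for 3538 genes. The 6 of these with the smallest p were Dio1 (7.14), Dnah11, a dynein chain (8.72), Slc22a7 (9.79), Fndc5 (5.08), Slc25a45 (3.17) and Gpd2 (3.14, log2, PBS minus T3). Dnah11 and Fndc5 were not called between the genotypes without hormone (adjusted p = 0.0680 and 0.918).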

How the results depend on the processing

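The number of genes called between hypothyroid injured KO and WT livers (351; 189 higher, 162 lower) was 790 (393 and 397) at an adjusted p of 0.1, 731 (360 and 371) with DESeq2, 334 with RLE factors, 205 (105 and 100) with no filter and 3 (3 and 0) on the 8 libraries alone. Scaling by library totals shifted the median of all genes to -0.117 and gave 106 higher and 246 lower. Leaving out 1 library gave 70 to 1746 genes (48 to 906 higher, 22 to 840 lower), and leaving out WT animal 2 with KO animal 3 gave 209 (179 and 30). The replicate number as a block gave 265 genes (166 higher, 99 lower); deviations of same-numbered KO and WT animals correlated at -0.348 to 0.51, so the numbers were not taken to pair the animals. In uninjured livers the count was 46 to 99 with a library left out and 144 with DESeq2; with T3 and CCl4 it was 2562 to 3512. The count for the difference CCl4 minus oil was 0 to 14 with a library left out, 0 without WT animal 2 and KO animal 3 and 0 with only the groups compared; that for PBS minus T3 was 2684 to 4665, and 2300 with only the groups compared. Of 81 genes followed over 16 settings, 9 kept their side of the threshold, Slc25a45 and Sult2a1 among them, 52 lost a call in some setting, 14 gained one and 6 changed sign. None of those 6 was called in any setting. With library totals Thra had -0.0319, Col1a1 -0.106 and Trem2 -0.123. With a library left out the lowest and highest values of the 6 were -0.077 and 0.271 for Thra, -0.243 and 0.556 for Col1a1, -0.251 and 0.552 for Trem2, -0.32 and 0.48 for Clec4f, -0.128 and 1.12 for Acta2, and -0.707 and 0.0737 for Krt19; without WT animal 2 and KO animal 3, Col1a1 had -0.0314 and Clec4f 0.0242. The cause was not tested.

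Read counts of 19400146 and more per library limit low genes: Gm18562, Sult2a1, Sult2a3 and Sult2a5 rest on few or no counts in WT. Sult2a1, with the largest rise, had 5 counts over the WT group. Each call rests on 4 animals a genotype, the spread of which is borrowed from all 32 libraries. Genotype is the only label that differs, but strain, litter and kit are not stated and cannot be told apart from it.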

Other observations

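One transcript separated all 16 KO from all 16 WT libraries of the series, whatever the treatment: the predicted gene Gm18562 (chr13:13323364-13350427), chosen after its values were seen. It had 0.592 to 7.08 CPM in KO libraries and 0 to 0.419 CPM in WT libraries. In hypothyroid injured livers it had 447 counts over the 4 KO animals and 0 over the 4 WT animals, which is at least 155-fold higher in KO when 3 counts over the WT group are taken as the limit that 0 allows. No other tested gene did this, Thrb included.

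Several genes outside the lists were called in the same direction in both injured and uninjured hypothyroid livers; they too were chosen after their values were seen. Mgll, the lipase that splits monoacylglycerol, had log2 fold changes of 1.53 ± 0.24 with injury and 1.16 ± 0.23 without. Lipg, endothelial lipase, had 2.09 ± 0.40 and 2.04 ± 0.41, and Letm1, an ion exchanger of the inner mitochondrial membrane, 0.83 ± 0.14 and 1.00 ± 0.14. Stat5a, a transcription factor of growth hormone signalling, had 0.58 ± 0.14 and 0.80 ± 0.14. With T3 and CCl4 all 4 were called lower in KO, at -1.72, -2.28, -1.0 and -1.67.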
